A study of Mus musculus with 50 samples.

Results

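The FoxO transcription factors of the mouse are 4 genes, Foxo1, Foxo3, Foxo4 and Foxo6, and they were found by their symbols among the 23880 genes of the expression tables. Each symbol matched 1 gene identifier. All 4 passed the filter on low counts that left 12586 genes for testing. Gastrocnemius mRNA of 50 wild type male C57BL/6JRj mice was sequenced with a stranded kit, 1 library per mouse. The 6 ages were 8, 18, 22 and 24 months (n = 8 each) and 26 and 28 months (n = 9 each), and all mice were housed 1 per cage and fed the AIN-93M diet. Mice of 8 and 18 months had been on this diet for at least 2 months, and mice of 22 to 28 months had received it from 18 to 19 months of age, so that diet history differs between these 2 blocks of ages. The strain is inbred, no gene was altered and no agent was given, so that age is the only difference between groups that the labels name.

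FoxO proteins bind DNA through a forkhead domain. When insulin or IGF-1 is present, PI3K activates AKT, AKT phosphorylates FoxO proteins, and 14-3-3 proteins hold them in the cytoplasm. When this input is low, FoxO proteins enter the nucleus and in muscle switch on ubiquitin ligases of the atrophy program, autophagy genes, cell cycle inhibitors and genes of fuel use. Their activity is thus set to a large part by phosphorylation and location, which these mRNA data do not measure.

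On GRCm38 in the GENCODE annotation, Foxo1 (ENSMUSG00000044167) lies on the plus strand at chr3:52268336-52353221. Foxo3 (ENSMUSG00000048756) lies on the minus strand at chr10:42181841-42276755. Foxo4 (ENSMUSG00000042903) lies on the plus strand at chrX:101254528-101260873, and Foxo6 (ENSMUSG00000052135) on the minus strand at chr4:120267079-120287349. All 4 are annotated as protein coding. Foxo1 and Foxo6 have 1 transcript each, Foxo4 has 3 and Foxo3 has 5.

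The promoter sequences of Foxo1 and Foxo3 are shown because the mRNAs of these 2 genes rose together. They come from RefSeq on GRCm38.p6, which held an entry for 2 of the 4 genes, and only the bases before the first annotated GENCODE start are printed, from 5′ to 3′ on the strand of the gene (Foxo1 chr3:52268087-52268335, plus strand, 249 bases, and Foxo3 chr10:42276756-42276945, minus strand, 190 bases). Capitals mark CCAAT and GGGCGG, the CCAAT box and the GC box, on either strand.
Foxo1: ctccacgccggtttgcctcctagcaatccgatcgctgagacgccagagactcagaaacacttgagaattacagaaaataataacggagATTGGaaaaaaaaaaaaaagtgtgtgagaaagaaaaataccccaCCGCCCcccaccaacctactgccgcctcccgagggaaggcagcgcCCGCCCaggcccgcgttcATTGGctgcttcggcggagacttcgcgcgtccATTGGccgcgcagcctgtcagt
Foxo3: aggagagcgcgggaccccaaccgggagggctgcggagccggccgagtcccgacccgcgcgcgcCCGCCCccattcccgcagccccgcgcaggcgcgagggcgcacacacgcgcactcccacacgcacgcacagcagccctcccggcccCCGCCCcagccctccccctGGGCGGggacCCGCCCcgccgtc
The Foxo1 stretch held 3 CCAAT boxes and 2 GC boxes, and the Foxo3 stretch held 4 GC boxes and no CCAAT box. Over windows of 300 bases (250 before to 50 after the start), CCAAT was found on either strand in 37.4% and GGGCGG in 35.7% of all 32851 promoters. The FoxO element GTAAACA, the E-box CACGTG and CAAAACA were not found in either 300-base window. G and C made up 61.3% of the Foxo1 window and 75.0% of the Foxo3 window, against a median of 52.7% over all promoters.

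Total counts per mouse ranged from 13607229 to 21267375, and the median library of each age held between 15332000 and 18409000 counts. Foxo4 had 2374 to 4411 counts per library, Foxo1 320 to 4776, Foxo3 455 to 2574 and Foxo6 only 3 to 69, so that Foxo6 carries the largest counting error. Levels are given as CPM, the counts of a gene scaled to a common library size with TMM factors, which compare mice for 1 gene. They are also given as TPM, in which counts are first divided by transcript length and which allow genes to be compared. Summed TPM of 8 muscle fibre genes (Acta1, Ckm, Myh4, Myh1, Mylpf, Tnnt3, Ttn, Des) lay between 113230 and 179290 in every mouse, as the tissue label states. Replicate 2 of 28 months stood apart, with the largest coordinate on the first principal component (63.8 against at most 46.1 in the others), and values without it are given beside the main comparison.

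Foxo4 was the most abundant member at every age, and Foxo6 the least abundant. On the length-scaled scale, Foxo4 had 122 ± 10.3 TPM (SD, n = 8) at 8 months. Foxo3 had 10.8 ± 2.54 TPM and Foxo1 9.17 ± 5.03 TPM at the same age, 2 levels that overlapped, and Foxo6 had 1.604 ± 0.554 TPM. At 28 months the mean was 144 ± 9.71 TPM for Foxo4 (n = 9), 33.9 ± 20.0 for Foxo1, 30.2 ± 13.5 for Foxo3 and 0.576 ± 0.401 for Foxo6. The order of the 2 middle members thus changed by name, but their spreads overlapped at both ages. Of the summed TPM of the family, Foxo4 took 85.3 ± 3.05% at 8 months and 70.6 ± 10.8% at 28 months, while Foxo1 went from 6.11 ± 2.81% to 15.2 ± 7.15% and Foxo3 from 7.42 ± 1.04% to 13.9 ± 4.16%. The summed level went from 144 ± 17.1 to 209 ± 37.5 TPM.

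**Figure D1:**
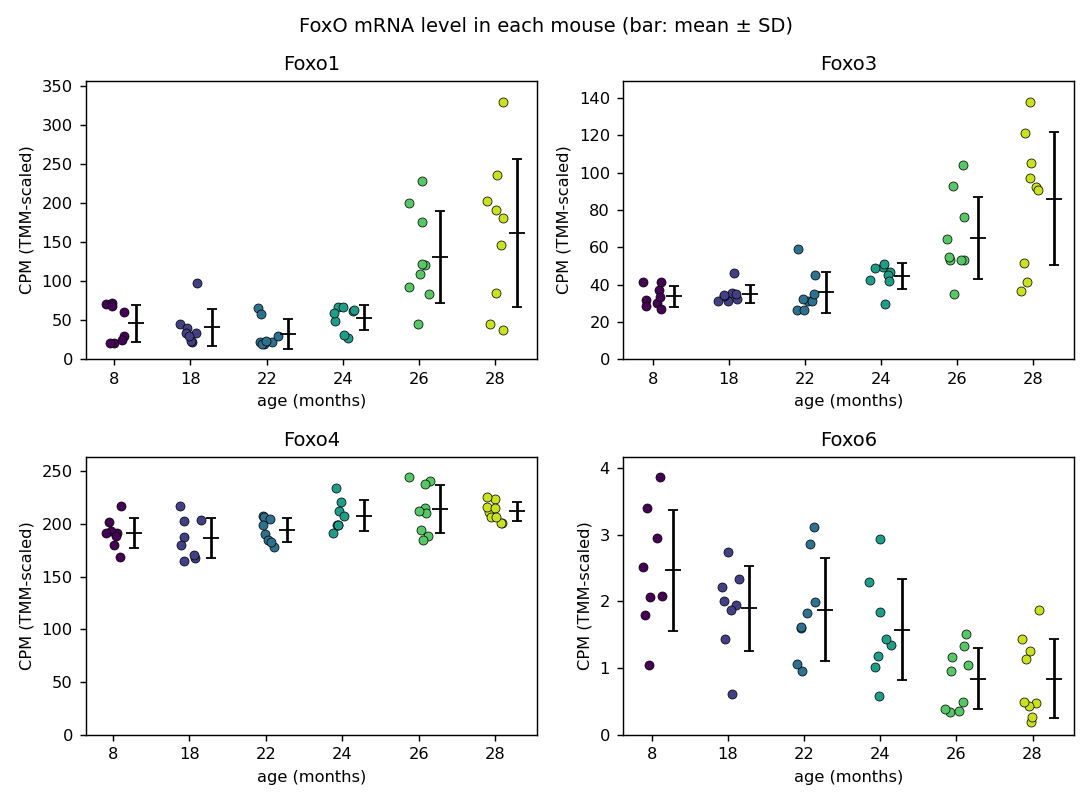
FoxO mRNA level of each mouse, 1 panel per gene. The horizontal axis is age in months (8 mice at 8, 18, 22 and 24 months, 9 at 26 and 28 months), the vertical axis is TMM-scaled CPM from 0, each point is 1 mouse, and the bar beside the points is the mean ± SD. Foxo1 and Foxo3 spread upward at 26 and 28 months, to at most 329 and 138 CPM, Foxo4 stays between 165 and 244 CPM, and Foxo6 falls.

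Foxo1, which in muscle drives genes of atrophy and of fuel switching, was low and then rose late. At 8 months it ranged from 20.1 to 72.1 CPM with a median of 44.6. Its median was 33.6 CPM at 18 months (21.9 to 97.2), then 22.5 at 22 months with a range of 19.0 to 65.8, and 59.9 at 24 months with one of 27.1 to 67.1. At 26 months the median stood at 120 CPM (44.9 to 228), and the oldest mice had 181 CPM (37.2 to 329). Of the 9 mice of 26 months, 8 lay above every mouse of 8 months, and of the 9 mice of 28 months, 7 did. The 2 exceptions at 28 months, replicates 3 and 4, had 45.3 and 37.2 CPM, inside the range of 8 months. Mice of 8 months were themselves split, with 4 between 20.1 and 29.2 CPM and 4 between 60.0 and 72.1.

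Foxo3, which induces ubiquitin ligases and autophagy genes in muscle, followed with a tighter start. It ranged from 26.6 to 41.5 CPM at 8 months with a median of 32.3. The median was 34.2 CPM at 18 months (31.3 to 46.5), then 31.8 at 22 months with a range of 26.2 to 59.0, and 46.0 at 24 months with one of 29.4 to 51.0. At 26 months it was 54.9 CPM (34.7 to 104), and the oldest mice had 92.5 CPM (36.6 to 138). Mice above every mouse of 8 months numbered 7 of 8 at 24 months, 8 of 9 at 26 months and 8 of 9 at 28 months.

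Foxo4, the member with the most even level, stayed in a narrow band. From the youngest to the oldest of the 6 ages, its medians were 191, 184, 195, 203, 213 and 212 CPM. The lowest mouse of each age had 169, 165, 179, 191, 185 and 201 CPM, and the highest had 217, 217, 207, 235, 244 and 226 CPM. All ages overlapped, and 2 of 9 mice of 28 months lay above every mouse of 8 months.

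Foxo6, the member whose protein stays mostly in the nucleus, fell. In the same order of ages, its medians were 2.30, 1.97, 1.73, 1.39, 0.952 and 0.496 CPM. The lowest mice had 1.04, 0.607, 0.952, 0.575, 0.345 and 0.196 CPM, and the highest had 3.86, 2.73, 3.12, 2.94, 1.51 and 1.87 CPM. At each of the last 2 ages 5 of 9 mice lay below every mouse of 8 months. The 4 mice of 28 months that stayed above 1 CPM of Foxo6 were replicates 3, 4, 6 and 9, and replicates 3, 4 and 6 were the 3 with the lowest Foxo1.

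The spread between mice of 1 age was wide for 3 of the members. At 28 months the coefficient of variation was 58.6% for Foxo1, 41.4% for Foxo3 and 70.8% for Foxo6 but 4.32% for Foxo4, against a median of 19.4% over all tested genes. At 8 months it was 52.6% for Foxo1, 16.6% for Foxo3, 37.0% for Foxo6 and 7.44% for Foxo4, against 15.9%. Foxo1 was thus variable at both ages, and Foxo4 lay below the median gene at both.

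The first comparison asked which members differed between 8 months-old adult mice and older mice. Foxo1 rose 3.53-fold by 28 months, a log2 fold change of 1.82 ± 0.36 (SE) with a false discovery rate (FDR) of 6.46e-05 in edgeR's quasi-likelihood test, adjusted over all 12586 genes. Foxo3 rose 2.55-fold, with 1.35 ± 0.20 (FDR 7.04e-07). Foxo6 fell 2.91-fold, with -1.54 ± 0.33 (FDR 0.00017). Foxo4 was 1.11-fold higher with 0.15 ± 0.06 (FDR 0.0359), which did not pass the threshold of 0.01. Without replicate 2 of 28 months these changes were 1.73 for Foxo1, 1.23 for Foxo3, -1.45 for Foxo6 and 0.14 for Foxo4. Of all genes tested, 39.6% passed in this comparison, 21.0% as higher and 18.7% as lower, so that a call alone is common here. In the size of the change, 0.985% of the tested genes had a larger absolute log2 fold change than Foxo1, 1.66% than Foxo6, 2.46% than Foxo3 and 73.1% than Foxo4.

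Calls appeared late in the time course. At 26 months, where 18.4% of genes passed, Foxo1 (1.51 ± 0.36, FDR 0.00152) and Foxo3 (0.95 ± 0.20, FDR 0.000384) had risen and Foxo6 had fallen (-1.54 ± 0.33, FDR 0.000608). Foxo4 gave 0.16 ± 0.06 at 26 months (FDR 0.0312). No member passed at 18, 22 or 24 months, where 0.0715%, 0.0397% and 0.612% of genes did. At 24 months, the log2 fold changes were 0.21 ± 0.36 for Foxo1, 0.40 ± 0.20 for Foxo3, 0.12 ± 0.06 for Foxo4 and -0.63 ± 0.32 for Foxo6, with FDR from 0.268 to 0.777.

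**Figure D2:**
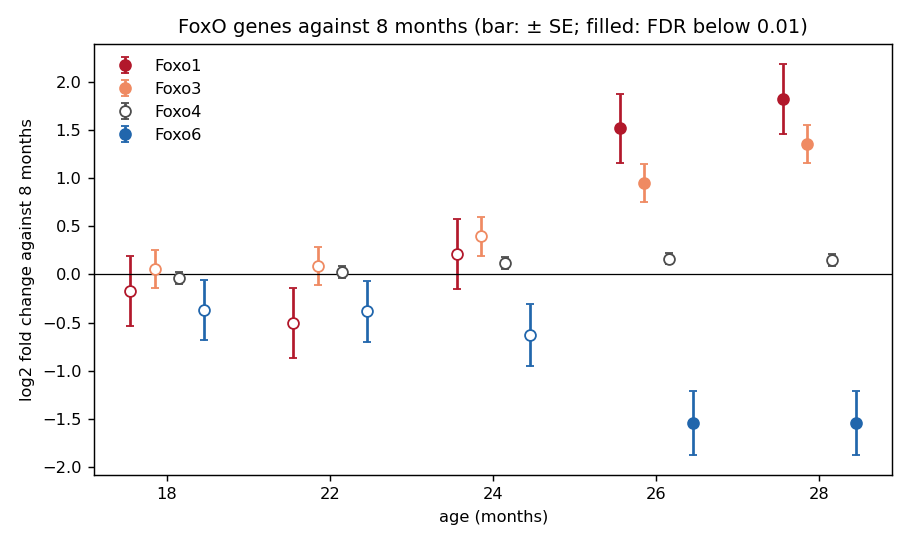
Log2 fold change of each FoxO gene against 8 months (vertical axis) at each later age (horizontal axis, months), with bars of ± 1 SE from edgeR and filled points for FDR below 0.01. Filled points appear at 26 and 28 months only, above 0 for Foxo1 and Foxo3 and below 0 for Foxo6, and the open points of Foxo4 lie between -0.04 and 0.16.

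No member passed between neighbouring ages. These comparisons called few genes of any kind: 0.00795% from 18 to 22 months and 0 of 12586 (0.0%) for each of the last 3 steps (22 to 24, 24 to 26, 26 to 28) in edgeR. The counts at an unadjusted p below 0.05 were 478, 2202 and 1609 genes for those 3 steps, and DESeq2 called 0, 14 and 0, and limma none. The largest step of Foxo1 was from 24 to 26 months, 1.30 ± 0.36 (FDR 0.0782), and the largest of Foxo3 fell on the same step, 0.55 ± 0.19 (FDR 0.127). The same held for Foxo6, with -0.91 ± 0.35 (FDR 0.155).

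Mice of 22 and 28 months shared the same diet regime. Between these 2 ages, where 27.7% of genes passed, Foxo1 rose by 2.33 ± 0.37 on the log2 scale (FDR 1.61e-05) and Foxo3 by 1.26 ± 0.20 (FDR 1.51e-05). Foxo6 fell with -1.16 ± 0.34 (FDR 0.00582), and Foxo4 gave 0.13 ± 0.06 (FDR 0.0852). The Foxo6 call is not firm: it was lost in a fit on the 2 ages alone (FDR 0.0205), and without replicate 2 or 5 of 22 months or replicate 1, 2, 5, 7 or 8 of 28 months (FDR from 0.0126 to 0.018). In the test of any difference among the 6 ages, which 35.4% of genes passed, FDR was 2.08e-07 for Foxo1, 5.81e-08 for Foxo3, 0.000232 for Foxo6 and 0.0128 for Foxo4. Foxo4 crossed the threshold of this test under DESeq2, under limma on TPM and with a replicate block, and its change between 8 and 28 months crossed it under limma on TPM, with a log2 fold change of 0.24 (FDR 0.00274).

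Ratios within a library compare the change of a member with that of another, free of library scaling. Log2 TPM ratios of 28 and 8 months-old mice were compared with a two-sided exact permutation test for the 6 pairs of members. The ratio of Foxo1 to Foxo4 rose from -3.95 ± 0.77 (SD, n = 8) to -2.40 ± 1.09 (n = 9), a difference of 1.55 (adjusted exact p = 0.008). That of Foxo3 to Foxo4 rose by 1.14 on the log2 scale (adjusted exact p = 0.00253), and 7 of 9 mice of 28 months lay above every mouse of 8 months for both ratios. Foxo4 to Foxo6 rose by 1.996 (adjusted exact p = 0.00197), Foxo3 to Foxo6 by 3.13 (0.00197) and Foxo1 to Foxo6 by 3.55 (0.00253). The ratio of Foxo1 to Foxo3 went from -0.42 ± 0.72 to 0.00 ± 0.47, a difference of 0.42 that was within the spread between mice (adjusted exact p = 0.17). Members therefore changed unequally except for this last pair, for which a difference was not shown.

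Within ages, mice with more Foxo1 mRNA also had more Foxo3 mRNA and less Foxo6 mRNA. For this, log2 CPM values were taken relative to the mean of each age, and mice were permuted within ages (100000 permutations, two-sided, adjusted over 6 pairs). Foxo1 and Foxo3 gave r = 0.865 and rho = 0.757 over 50 mice (adjusted permutation p = 3e-05 and 6e-05), and r was 0.816 without the 2 mice farthest from the median of Foxo1. Only 4 of 9189 genes with a mean of at least 5 CPM had a larger absolute r with Foxo1 than Foxo3 had. Foxo1 and Foxo6 gave r = -0.588 and rho = -0.434 (adjusted permutation p = 0.00012 and 0.0069), with r = -0.493 without the 2 farthest mice. For Foxo3 and Foxo6 these values were -0.658 and -0.438 (adjusted permutation p = 3e-05 and 0.0069), with -0.573 without the 2 farthest. The relations of Foxo6 stood out less among all genes. Of 9189 genes, 511 had a larger absolute r with Foxo1 than Foxo6 had. With Foxo3, 948 of 9189 genes had a larger absolute r than Foxo6 had.

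Over all ages together, no relation of Foxo4 passed the threshold. Its r was 0.190 with Foxo1, 0.202 with Foxo3 and 0.064 with Foxo6 (adjusted permutation p from 0.201 to 0.664). On log2(TPM + 1), Foxo3 and Foxo4 gave r = 0.354 with an adjusted permutation p of 0.00976. Foxo4 was also the member that followed library scaling most, with r = -0.506 to the TMM factor and 0.442 to the total count, and the part of scaling in its relations was not tested beyond this. The same r with the TMM factor was -0.370 for Foxo1, -0.309 for Foxo3 and 0.254 for Foxo6.

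In each age alone, Pearson r had the same sign for 3 pairs. Foxo1 and Foxo3 correlated positively in 6 of 6 ages (r from 0.689 to 0.964), and Foxo6 negatively with Foxo1 and with Foxo3 in 6 of 6 ages (r from -0.857 to -0.071 and from -0.854 to -0.201). The signs for Foxo6 did not all hold in other measures. At 8 months rho was 0.19 with Foxo1 and 0.07 with Foxo3, and without the 2 farthest mice r was 0.296 with Foxo1 at 24 months, and 0.308 at 8 months and 0.085 at 18 months with Foxo3. Over the 36 tests by age, the adjusted exact permutation p for Foxo1 and Foxo3 was 0.0402 at 22 months, 0.0188 at 26 months and 0.0126 at 28 months for r, and did not pass 0.05 at the other 3 ages. By rank it passed at 28 months alone (adjusted exact permutation p = 0.0205, against 0.0744 at 22 months and 0.112 at 26 months). At 8 and 22 months no mouse lay between 29.7 and 57.5 CPM of Foxo1, so that r at these 2 ages rests on 2 separate sets of mice. Without the 2 mice farthest from the median, r fell to 0.207 at 18 months, 0.484 at 22 months and 0.242 at 24 months but was 0.761 at 26 months and 0.915 at 28 months. Foxo1 and Foxo6 passed at 26 months alone and only by r (r = -0.811, adjusted exact p = 0.0467, and 0.0744 by rank), and their pooled relation did not pass in the mice of 8, 18 and 22 months alone (r = -0.430, adjusted permutation p = 0.0888), nor did that of Foxo3 and Foxo6 (r = -0.459, adjusted permutation p = 0.0809). The difference between younger and older ages in these relations was not tested. Relations of Foxo4 changed sign between ages. Foxo3 and Foxo4 gave rho = -0.952 (adjusted exact p = 0.0205) and r = -0.709 (0.0941) at 18 months but r between 0.441 and 0.542 at 22, 24 and 26 months, and Foxo1 and Foxo4 gave r = 0.755 at 8 months and -0.581 at 18 months.

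**Figure D3:**
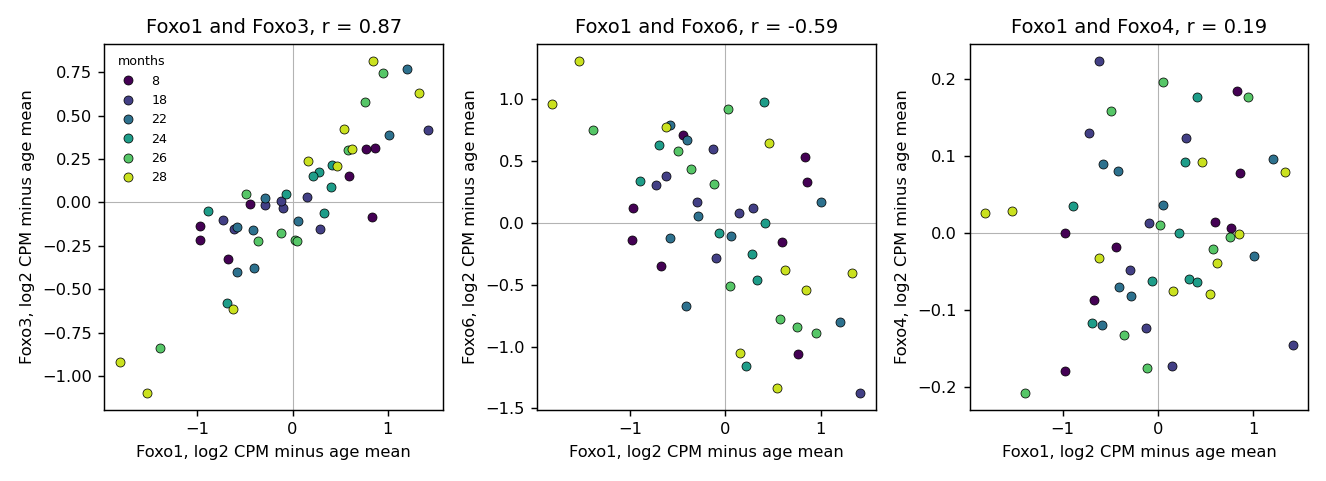
Within-age relation of Foxo1 with Foxo3, Foxo6 and Foxo4. Axes are log2 CPM minus the mean of the age, each point is 1 of 50 mice and the colour is age in months. Points rise from lower left to upper right for Foxo3 (r = 0.87), fall for Foxo6 (r = -0.59) and show no slope past the threshold for Foxo4 (r = 0.19).

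Some single mice show the same contrast at 28 months. Replicate 1 had the highest Foxo1 of the series, 329 CPM, with 122 CPM of Foxo3 and 0.483 of Foxo6. Replicate 3 had 45.3 CPM of Foxo1, 36.6 of Foxo3 and 1.87 of Foxo6, the highest Foxo6 of this age. Foxo4 was 224 CPM in the former and 216 in the latter. At 26 months, replicate 1 had 228, 104 and 0.345 CPM of Foxo1, Foxo3 and Foxo6, while replicate 7 had 44.9, 34.7 and 1.34. Other mice did not show it. Replicate 9 of 28 months had 181, 90.7 and 1.13 CPM of these genes. Replicate 2 of 26 months had 120, 53.4 and 1.51 CPM, the highest Foxo6 of its age.

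The first principal component (PC1) of the whole transcriptome, which held 37.7% of the variance over 12452 genes, was related to the same 3 members within ages. Over 50 mice, r with PC1 was 0.894 for Foxo3, 0.699 for Foxo1 and -0.697 for Foxo6 (adjusted permutation p = 1.33e-05 for each, which rests on the smallest raw p, 1e-05, that the permutations can give). Foxo4 gave 0.115 (adjusted permutation p = 0.393). The rank correlations were 0.792, 0.493, -0.524 and 0.181, and r without the 2 farthest mice was 0.849, 0.593, -0.671 and 0.075.

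The genes most like each member within ages were named by r over 50 mice, with no test. For Foxo1 they were Slc7a8, an amino acid transporter (r = 0.904), Fkbp5, a co-chaperone of steroid receptors (0.903), Glul, glutamine synthetase (0.894), Wbp1l (0.880) and Foxo3 itself. Those most opposed to Foxo1 were Cxxc5 (-0.834), Dusp10, a phosphatase of stress kinases (-0.778), and Calm2, a calmodulin gene (-0.761). Foxo3 was most like Il6ra, the interleukin-6 receptor (0.921), Lars, leucyl-tRNA synthetase (0.904), Mybbp1a (0.891), Polr1b, a subunit of RNA polymerase I (0.888), and Ddx21, a nucleolar helicase (0.886). Opposed to Foxo3 were Calm2 (-0.884), the zinc transporter Slc39a1 (-0.828) and Gnb5 (-0.816). Of 9189 genes, 28.9% had an absolute r over 0.5 with Foxo3 and 13.5% with Foxo1, so that wide parts of the transcriptome moved with both.

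Foxo6 was most like Pcbp4 (0.818), Tsc22d4 (0.814), the mitochondrial carrier Slc25a39 (0.788), Foxo6os (0.787) and Rassf3 (0.763). Foxo6os (ENSMUSG00000084929) is annotated as an antisense RNA on the plus strand at chr4:120291350-120303892, with 4000 bases between it and Foxo6, so that the 2 genes do not overlap. The methods name protein-coding transcripts as the reference, yet the count table holds this gene, so that the transcript behind its counts is not known here. It ranged from 8.06 to 15.3 CPM at 8 months and from 1.07 to 5.89 at 28 months, ranges that did not overlap, and it fell (-1.93 ± 0.32, FDR 4.78e-06). Most opposed to Foxo6 were Gnl2 (-0.803) and Wdr43 (-0.777), both of ribosome assembly, and Klhl38 (-0.772). Foxo4 was most like the kinase Cdk16 (0.782), Htatsf1 (0.748), the kinase Stk11 (0.718), Abcb4 (0.717) and Lsm14b (0.712), and most opposed to Ifi27l2a (-0.656), Dcn, decorin of connective tissue (-0.638), and Vps29 (-0.578). Only 1.55% of genes had an absolute r over 0.5 with Foxo4, against 16.997% with Foxo6.

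Of the genes listed as FoxO targets, those of the ubiquitin system mostly rose. By 28 months 6 of 7 listed ubiquitin and proteasome targets rose and none fell, with a median log2 fold change of 0.86 against 0.01 over all tested genes and 85.7% called against 39.6%. Trim63, the ubiquitin ligase MuRF1, had a median of 88.4 CPM at 8 months (61.6 to 171) and 288 at 28 months (65.9 to 1078), with 6 of 9 old mice above all young ones (2.10 ± 0.39, FDR 2.21e-05). Fbxo32, the ubiquitin ligase atrogin-1, went from 557 CPM (415 to 869) to 1158 (395 to 5439), a rise of 1.62 ± 0.32 (FDR 5.04e-05), although 1 mouse of 28 months lay below all of 8 months. Fbxo31 rose by 0.94 ± 0.16 (FDR 1.01e-05) and Fbxo30, known as MUSA1, by 0.86 ± 0.20 (FDR 0.000373). Like Foxo1 and Foxo3, Trim63 and Fbxo32 spread widely among old mice.

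Cell cycle, apoptosis and stress targets went both ways. Of 21 tested genes 7 rose, 5 fell and 9 did not pass (57.1% called against 39.6% of all genes), with a median log2 fold change of 0.08. The list was not divided by whether FoxO factors raise or lower a gene, so that its median and its signs mix the 2 kinds. The cyclin genes Ccnd1 (-0.74, FDR 0.00279) and Ccnd2 (-0.61, FDR 0.000622), named for this reason, were among those that fell. Sesn1, a sestrin that restrains mTORC1, had a median of 25.6 CPM at 8 months (18.9 to 33.5) and 176 at 28 months (26.1 to 520), a rise of 2.96 ± 0.43 (FDR 6.65e-07). Cdkn1a, the cell cycle inhibitor p21, went from 17.3 CPM (7.60 to 22.5) to 61.2 (25.4 to 239), and the 2 ages did not overlap (2.30 ± 0.34, FDR 7.17e-07). Gadd45a, a stress gene that also responds to denervation, rose by 2.30 ± 0.31 (FDR 2.15e-07).

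Among autophagy targets 9 of 18 rose, 1 fell and 8 did not pass (55.6% called), with a median of 0.29. Ctsl, the lysosomal protease cathepsin L, rose by 1.30 ± 0.23 (FDR 9.21e-06), and Gabarapl1, of the ATG8 family, by 0.86 ± 0.23 (FDR 0.00149). Bnip3, a mitophagy receptor, rose by 0.84 ± 0.18 (FDR 0.000115), and Map1lc3b, the gene of LC3B, by 0.76 ± 0.14 (FDR 2.52e-05). Of the metabolic targets 4 of 10 rose and none fell, a share of calls next to the 39.6% of all genes, with a median of 0.47. Ddit4, an inhibitor of mTORC1, rose by 2.21 ± 0.55 (FDR 0.000778), Eif4ebp1, the translation repressor 4E-BP1, by 1.70 ± 0.29 (FDR 5.85e-06) and Pnpla2, the triglyceride lipase ATGL, by 0.67 ± 0.15 (FDR 0.000258). Pdk4, the kinase that blocks pyruvate oxidation, had medians of 1482 CPM at 8 months and 2190 at 28 months, with 0.90 ± 0.33 (FDR 0.0181).

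**Figure D4:**
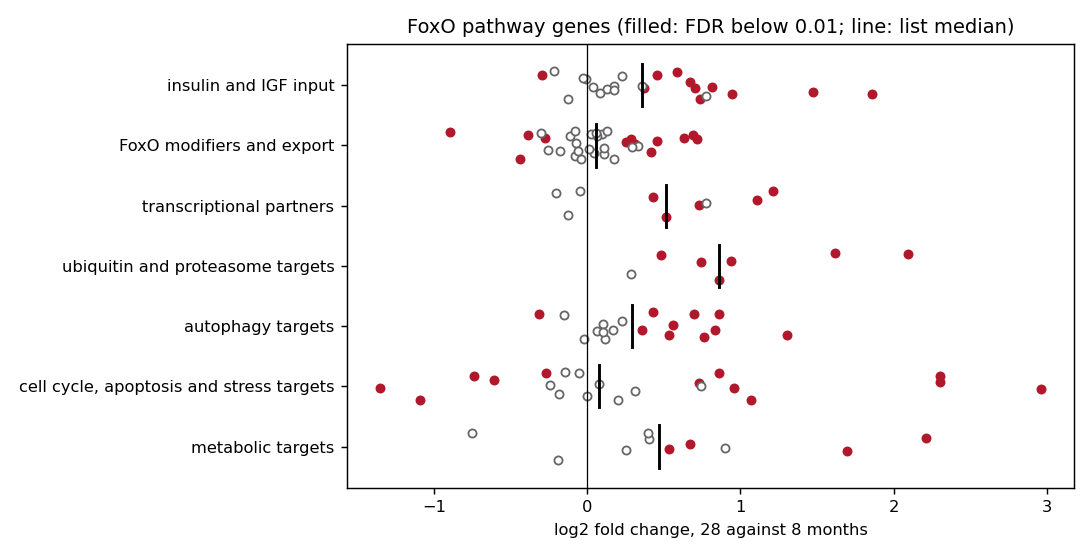
Log2 fold change between 28 and 8 months (horizontal axis) of each tested gene in 7 lists around FoxO (rows). Filled points passed FDR 0.01 in edgeR, open points did not, and the black line is the median of a list. The median is highest for ubiquitin and proteasome targets (0.86) and near 0 for FoxO modifiers and export (0.05).

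Of 23 genes of insulin and IGF input, upstream of FoxO, 10 rose, 1 fell and 12 did not pass, that is 47.8% called against 39.6% of all genes, with a median of 0.36. The regulatory PI3K subunit Pik3r1 rose by 1.86 ± 0.31 (FDR 5.94e-06), the docking protein Irs2 by 1.47 ± 0.34 (FDR 0.000322), the receptor Igf1r by 0.94 ± 0.16 (FDR 6.60e-06) and the kinase Akt1 by 0.74 ± 0.14 (FDR 2.44e-05). Irs2 was uneven, with 25.01 to 545 CPM at 28 months and 35.8 to 73.2 at 8 months. The growth factor Igf1 gave 0.04 ± 0.14 (FDR 0.833), Akt2 0.17 ± 0.06 (FDR 0.0223) and Sgk1, a kinase that also phosphorylates Foxo3, 0.36 ± 0.21 (FDR 0.145).

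Enzymes and carriers that modify or export FoxO proteins stood near the background, with 8 of 33 genes higher, 4 lower, 21 not called (36.4% called) and a median of 0.05. The deacetylase Sirt1 rose by 0.72 ± 0.12 (FDR 2.94e-06) and the acetyltransferase Crebbp by 0.69 ± 0.14 (FDR 5.44e-05). The mitochondrial deacetylase Sirt3 had a median of 22.2 CPM at 8 months and 11.5 at 28 months (-0.90 ± 0.16, FDR 1.32e-05). Of 9 transcriptional partners 5 rose and none fell (55.6% called). Foxk1, a forkhead protein that shares FoxO sites, rose by 1.21 ± 0.17 (FDR 2.87e-07), Stat3 by 1.11 ± 0.19 (FDR 8.45e-06) and Cited2 by 0.73 ± 0.18 (FDR 0.000855). The coactivator Ppargc1a gave 0.77 ± 0.34 (FDR 0.0523). Over all 121 tested genes of these 7 lists 49 rose, 11 fell and 61 did not pass, that is 49.6% called against 39.6% of all genes. The lists were written with earlier results of these data known, so that their direction is no independent evidence.

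Within ages, Foxo3 was related to all of 8 well known target genes, Foxo1 to 7 of them, Foxo4 to none, and Foxo6 to all 8 in the opposite direction (32 relations, permutation p adjusted over all of them). Foxo3 gave its highest r with Sesn1 (0.872), Trim63 (0.857) and Fbxo32 (0.835), and Foxo1 with Trim63 (0.808), Pdk4 (0.736) and Sesn1 (0.705), each with an adjusted permutation p of 3.2e-05. For Foxo1 and Fbxo30, r was 0.338 (adjusted permutation p = 0.108). Foxo6 gave -0.735 with Trim63 and -0.706 with Fbxo32 (adjusted permutation p = 3.2e-05 and 4.57e-05), and -0.401 with Fbxo30 and -0.429 with Gabarapl1 (0.0331 and 0.0163), 2 relations that were lost on log2(TPM + 1) and without TMM factors. The r values of Foxo4 lay between -0.143 and 0.129. Large values were also common among genes of any kind with a mean of at least 5 CPM. An absolute r over 0.5 was found for 28.9% of them with Foxo3, 16.997% with Foxo6, 13.5% with Foxo1 and 1.55% with Foxo4. Their median absolute r was 0.347 with Foxo3, 0.285 with Foxo6 and 0.267 with Foxo1. The share of all genes that would pass the same permutation test was not tested, so that the counts of related targets are not read as particular to targets. The median r over the 7 genes of the ubiquitin list was 0.71 for Foxo3, 0.45 for Foxo1, -0.01 for Foxo4 and -0.54 for Foxo6, against medians between -0.02 and 0.00 over all tested genes. Other target lists had medians nearer 0: for Foxo3, Foxo1 and Foxo6 the medians were 0.45, 0.41 and -0.35 over metabolic targets, 0.40, 0.30 and -0.41 over autophagy targets, and 0.09, 0.05 and -0.05 over cell cycle, apoptosis and stress targets, of which 11 of 21 had a positive r with Foxo3. That last list was not divided by whether FoxO factors raise or lower a gene.

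**Figure D5:**
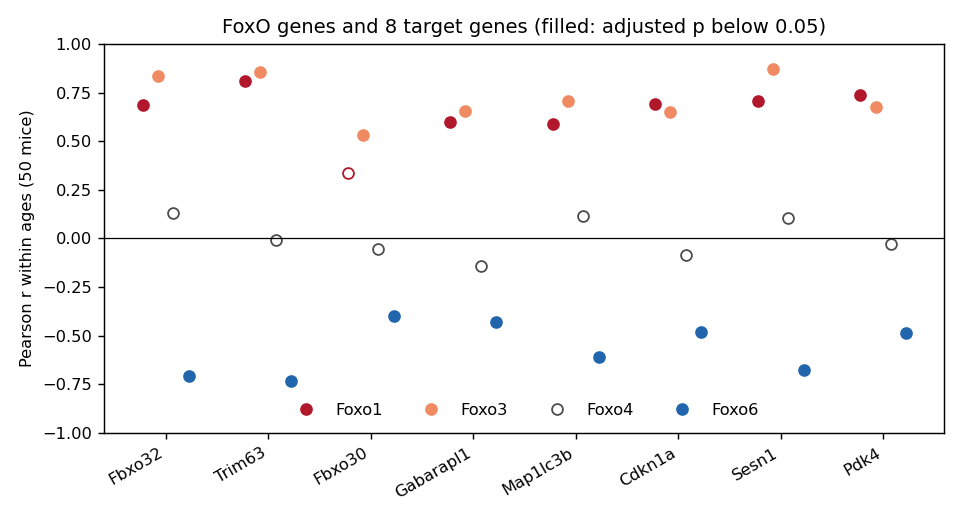
Pearson r within ages (vertical axis, 50 mice) of each FoxO gene with 8 target genes (horizontal axis), with filled points for an adjusted permutation p below 0.05. Foxo1 and Foxo3 lie above 0 for all 8 targets, Foxo6 below 0 for all 8, and the open points of Foxo4 lie near 0, between -0.143 and 0.129.

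The FoxO elements of target promoters are shown because Trim63 and Sesn1, whose r with Foxo3 was highest among the 8 targets, carry one. GTAAACA or its reverse complement TGTTTAC was found in the 300-base windows of 6 of the 46 listed target genes that had a RefSeq promoter entry (13.04%) and of 4.05% of all 27025 genes. The target list differed from all genes in other letters too: the E-box CACGTG was found in 15.2% against 8.09% and the GC box GGGCGG in 78.3% against 38.2%, while CAAAACA was found in 8.70% against 7.20%. Nothing particular to FoxO is read from these shares. The elements are shown in capitals with 6 bases on each side, all on the plus strand of the genome, which is also the strand of the gene.
Trim63 (chr4:134314920-134314938): tgttctTGTTTACgacccc
Sesn1 (chr10:41810590-41810608): ttctacTGTTTACcagcct
Btg1 (chr10:96616791-96616809): tttattTGTTTACaagcag
Bcl2l11 (chr2:128125805-128125823): actaggGTAAACAcgccgg
Txnip (chr3:96557830-96557848): ggcctgGTAAACAagggcc
Bbc3 (chr7:16310088-16310106): cgggttTGTTTACaaacaa
Of these genes 5 rose by 28 months, from 0.73 for Txnip (FDR 0.00166) through 0.86 for Btg1 (FDR 0.000106) and 0.95 for Bcl2l11 (FDR 0.000298) to Trim63 and Sesn1 above. Bbc3, which codes for the apoptosis inducer PUMA, gave 0.74 (FDR 0.0137). The 4 genes other than Trim63 and Sesn1 are named for the element and not by their change. A match is a description of these letters and was not tested as a binding site.

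Other signals moved with Foxo1, Foxo3 and Foxo6. Of 10 genes known to respond to glucocorticoids, among them Fkbp5, Klf15, Tsc22d3 and the clock gene Per1, 8 rose and 1 fell by 28 months (90.0% called against 39.6% of all genes). Their summed level ranged from 424 to 1003 TPM at 8 months and from 552 to 2022 at 28 months. Within ages this sum had r = 0.847 with Foxo1, 0.756 with Foxo3, -0.081 with Foxo4 and -0.615 with Foxo6, and its part in the results was not tested. The time of dissection is not given in the sources used here. Clock genes peak at different times of day, so that a sum over them can cancel, and single genes are given instead. With Foxo1 and Foxo3, r was -0.70 and -0.81 for Dbp, -0.75 and -0.76 for Bhlhe41, 0.81 and 0.66 for Nfil3, 0.66 and 0.80 for Cry2, and 0.58 and 0.64 for Arntl. These genes had some of the larger r values of the list. Others lay near 0, such as Per2 (0.10 and 0.02) and Cry1 (-0.11 and -0.02). Over the 17 tested clock genes the median r was -0.11 with Foxo1 and -0.02 with Foxo3, with 7 and 8 genes positive. Of these 17 genes 5 rose and 3 fell by 28 months, that is 47.1% called against 39.6% of all genes. The part of the time of day in the FoxO values was not tested.

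Markers of other cells bear on a whole-muscle measurement, in which fewer cells of a type and less RNA per cell cannot be told apart. Of 7 fibroblast markers 5 fell by 28 months (71.4% called against 39.6% of all genes). Their sum went from a median of 1049 TPM at 8 months (789 to 1147) to 740 at 28 months (634 to 857). Within ages this sum had r = -0.673 with Foxo4, -0.217 with Foxo1, -0.106 with Foxo3 and 0.045 with Foxo6, but it is dominated by Dcn (mean 667 CPM), which had r = 0.04 with Foxo3. Gene by gene the fibroblast markers went with the other members as well. Their median r was -0.61 with Foxo3, -0.50 with Foxo1, -0.30 with Foxo4 and 0.54 with Foxo6, and the collagen genes Col1a1, Col1a2 and Col3a1 had r of -0.61, -0.66 and -0.54 with Foxo3 and of 0.65, 0.65 and 0.56 with Foxo6. Of 7 adipocyte markers 5 fell by 28 months (71.4% called against 39.6% of all genes), with a median log2 fold change of -1.29, among them Lep, the gene of leptin (-3.98, FDR 3.24e-06). Their sum had r = -0.514 with Foxo4 and between -0.006 and 0.042 with the others. Fabp4, which had the highest mean of these markers (189 CPM), was not called (FDR 0.141). Between 22 and 28 months, which share a diet regime, 2 of the 7 adipocyte markers fell. That is 28.6% called against 27.7% of all genes, with a median log2 fold change of -0.72. Gene by gene, the median r of the adipocyte markers was -0.30 with Foxo4, -0.13 with Foxo3, -0.04 with Foxo1 and 0.03 with Foxo6. The sum of denervation markers had r = 0.101 with Foxo1, 0.174 with Foxo3 and 0.219 with Foxo6. By 28 months 6 of its 7 tested genes rose (85.7% called against 39.6% of all genes). This sum is dominated by Myh8 (mean 416 CPM), which was not called (FDR 0.0798). Over the 7 tested denervation genes the median r was 0.18 with Foxo1, 0.18 with Foxo3 and -0.13 with Foxo6. With Foxo6, 2 of the 7 had a positive r. No marker in the tables was at 0 in all mice. The part of any of these cells in the FoxO values was not tested.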

How the data were processed

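The authors trimmed reads with cutadapt 1.9.1, assigned them by strand with kallisto 0.43.1 to transcripts of GRCm38 that the methods call protein-coding (the table also holds genes annotated otherwise, such as Foxo6os), divided reads that fit several transcripts evenly, and deposited summed counts per gene (whole numbers, not normalized) and deposited TPM values, scaled by transcript length and library size. Genes reaching 1 CPM in 8 mice or more (12586) were fitted with edgeR 4.0.16 in R 4.3.3 (TMM, quasi-likelihood, 1 fit over 6 ages, Benjamini-Hochberg over all genes, FDR 0.01). DESeq2 1.42.0 and limma 3.58.1 were alternatives. Log2 CPM values used a prior count of 2. Correlations, exact tests and promoter searches were made in Python 3.11.15 (numpy 2.4.6, scipy 1.17.1, pandas 2.3.3) at a threshold of 0.05. The fit and the permutation test were tested on simulated data. The spread between mice sets the precision, and labels do not say whether a replicate number means more than a name.

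The members, the gene lists and the tests were chosen with earlier results of these data known. Named were the 4 members, in each pathway list the 3 largest changes between 28 and 8 months among called genes whose mean reached 5 CPM, 18 preset genes, and the 5 most and 3 least correlated genes of each member. Of 127 listed pathway genes 121 were tested. Alternatives were other scaling factors, no filter, other tests, TPM, 2 ages alone, a replicate block and each mouse left out.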

Additional observations from a re-analysis of the deposited data

Results flagged for a closer look

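Among 24 sets of CPM values (4 genes at 6 ages), 3 held a mouse whose gap to its nearest neighbour was large relative to the range of its group, where chance gives about 1 in 20 sets. Replicate 6 of 18 months was the highest of its age for Foxo1, 97.2 CPM against 21.9 to 44.4 in the others, and for Foxo3, 46.5 CPM against 31.3 to 35.6. The same mouse had the lowest Foxo6 of its age, 0.607 CPM, and 168 CPM of Foxo4. Replicate 3 of 24 months was the lowest of its age for Foxo3, 29.4 CPM against 42.2 to 51.0 in the others. It had 31.1 CPM of Foxo1, the second lowest of its age, and 2.29 CPM of Foxo6, the second highest.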

How the results depend on the processing

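Foxo1 and Foxo3 as higher and Foxo6 as lower at 28 against 8 months kept their direction and passed FDR 0.01 under every alternative run and without any 1 mouse. Leaving out mice moved these log2 fold changes from 1.62 to 1.95, from 1.23 to 1.45 and from -1.78 to -1.41. Foxo4 depended on the method. Between 28 and 8 months its log2 fold change was 0.24 and past the threshold under limma on log2(TPM + 1) and log2(TPM + 0.1). In the test of any age difference, its FDR was 0.00342 and 0.00348 under these 2 and 0.00456 under DESeq2. It ranged from 0.00436 to 0.0339 with 1 mouse left out, passing without replicate 3 of 8 months, replicates 1, 2 or 4 of 18 months or replicate 7 of 26 months. Foxo6 between 28 and 22 months was -1.16 and no longer past the threshold with the 2 ages alone, and ranged from -1.39 to -1.02 with 1 mouse left out. Foxo3 with Foxo4 gave r = 0.354 on log2(TPM + 1). In the mice of 8, 18 and 22 months alone, r was -0.430 for Foxo1 with Foxo6 and -0.459 for Foxo3 with Foxo6, both no longer past the threshold with fewer mice. Foxo4 with Fbxo30 turned from -0.06 to 0.284 on log2(TPM + 1). Causes of the changes with TPM were not tested.

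The replicate number was tried as a block. Of 121 same-numbered pairs of mice, 47 deviated together with r over 0.1 (median 0.051), and 8 of 50 mice correlated best with a mouse of their own number, so that the numbers were not taken to pair mice. With the replicate block, 4954 genes passed at 28 against 8 months in place of 4988, log2 fold changes were 1.78, 1.32, 0.13 and -1.54 for Foxo1, Foxo3, Foxo4 and Foxo6, and Foxo4 passed the test of any age difference with an FDR of 0.00383. Foxo1 with Foxo3 gave r = 0.890. The block also brought Foxo1 with Fbxo30 past the threshold (r = 0.392) and lost Foxo6 with Gabarapl1 (r = -0.328).

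Numbers of called genes at the steps with few calls moved most. They were 9 (4 to 11 over alternatives) at 18, 5 (1 to 34, leave-outs included) at 22 and 77 (47 to 190) at 24 against 8 months, 1 (up to 3) at 22 against 18 and 0 (up to 14) at 26 against 24 months. At 28 against 22 months 3485 genes passed, and 1883 with the 2 ages alone, and at 26 against 8 months 2314, with 1453 without replicate 1 of 26 months. Counts of 3 to 69 reads limit the precision of Foxo6.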

Other observations

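Levels of other cell markers were compared with the 4 genes within ages as a description. Summed macrophage markers had r between -0.162 and 0.151 with Foxo1, Foxo3 and Foxo6 and -0.320 with Foxo4. Of 7 tested macrophage genes 4 rose between 8 and 28 months (57.1% called against 39.6% of all genes), with a median log2 fold change of 0.56. Between 22 and 28 months, which share a diet regime, this median was 0.23 and the edgeR FDR of the 7 genes lay between 0.0196 and 0.804, all above the threshold. Endothelial markers had r from -0.237 (Foxo4) to 0.155 (Foxo6), and satellite cell markers from -0.321 (Foxo1) to 0.184 (Foxo4). The satellite cell sum joins genes of opposite sign. With Foxo1 and Foxo3, r was 0.46 and 0.57 for Cdh15 and 0.07 and 0.05 for Myf5. It was -0.56 and -0.62 for Myod1 and -0.47 and -0.48 for Pax7. Slow fibre markers, whose summed level ranged from 323 to 4821 TPM over all mice, had r of 0.190, 0.198, -0.072 and 0.293 with Foxo1, Foxo3, Foxo4 and Foxo6. Erythroid markers had r from -0.174 to 0.144, Schwann cell markers from -0.383 to 0.085 and muscle fibre markers from -0.162 to 0.380. Lymphocyte markers summed to between 0.196 and 3.46 TPM in every mouse, and none of the 6 genes passed the filter on low counts.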
